A study of Mus musculus with 8 samples.

Results

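The beta-2 integrin subunit genes Itgam, Itgax, Itgal and Itgb2 and the integrin ligand gene Icam1 were followed in macrophages given LPS with or without IL-10. They were chosen by symbol, and all 5 were found among the 11415 genes of the table. The macrophages were grown from bone marrow for 5 days in M-CSF conditioned medium, and every group came from mice of strain 129S6/SvEvTac with genotype IL10-/-RAG2-/-. The controls therefore also carried both disrupted genes, and the IL-10 tested was the IL-10 added. In the group called IL-10 throughout, cells received LPS, a bacterial activator of Toll-like receptor signalling, at 1 ng/mL with IL-10 at 1 ng/mL, both for 195 min. In the group called late IL-10, LPS was present for 195 min and IL-10 for the last 30 min of it, at a dose that the labels do not restate. The LPS group received LPS alone at 1 ng/mL for 195 min, and the untreated group received neither. Each group held 2 libraries from 2 independent macrophage pools. Mature mRNA and pre-mRNA, the unspliced precursor that still holds introns, were quantified from the same total RNA.

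Beta-2 integrins are heterodimers of the leukocytes. The common beta chain CD18, encoded by Itgb2, pairs with CD11a (Itgal) to form LFA-1, with CD11b (Itgam) to form Mac-1, the complement receptor that takes up opsonised particles, and with CD11c (Itgax) to form another complement receptor that is widely used as a marker of dendritic cells and of some activated macrophages. ICAM-1, the product of Icam1, is a surface ligand of LFA-1 and Mac-1, and its gene is a textbook target of NF-kB. LPS signals through Toll-like receptor 4 to NF-kB and to interferon genes, and IL-10 acts on macrophages through STAT3.

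In the GENCODE annotation of GRCm38, the assembly also called mm10, 3 of the genes lie on chromosome 7 on the plus strand. Itgal spans chr7:127296260-127335138, Itgam spans chr7:128062640-128118491 and Itgax spans chr7:128129547-128150657. The gap between Itgam and Itgax is 11.1 kb, and Itgad, which encodes the fourth alpha subunit CD11d, starts 3.72 kb beyond the end of Itgax. Itgal lies 728 kb before Itgam. Itgb2 spans chr10:77530252-77565708 and Icam1 spans chr9:21015985-21028817, both on the plus strand. The annotation also places Gm49368 over Itgam on the same strand and Gm47079 over Icam1 on the opposite strand. The library kit keeps the strand, but how reads were assigned where genes overlap is not given in the sources used here, so the values of Itgam and Icam1 may include reads of those neighbours.

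Of the 5 genes, 3 matched the promoter table used, namely Itgam, Itgax and Icam1, and not Itgal and Itgb2. These promoters are shown because pre-mRNA of all 3 genes changed, in different directions. Each stretch is 300 bases of the plus strand, from RefSeq on build GRCm38.p6, with 250 bases before the gene start and 50 after it, and capitals mark the motifs found. They lie at chr7:128062390-128062689 for Itgam, chr7:128129300-128129599 for Itgax and chr9:21015690-21015989 for Icam1.
Itgam: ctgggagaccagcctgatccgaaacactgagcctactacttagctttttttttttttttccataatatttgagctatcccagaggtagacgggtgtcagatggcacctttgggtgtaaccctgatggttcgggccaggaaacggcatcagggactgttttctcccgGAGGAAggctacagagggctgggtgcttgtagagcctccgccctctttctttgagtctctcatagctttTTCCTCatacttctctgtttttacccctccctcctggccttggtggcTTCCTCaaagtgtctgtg
Itgax: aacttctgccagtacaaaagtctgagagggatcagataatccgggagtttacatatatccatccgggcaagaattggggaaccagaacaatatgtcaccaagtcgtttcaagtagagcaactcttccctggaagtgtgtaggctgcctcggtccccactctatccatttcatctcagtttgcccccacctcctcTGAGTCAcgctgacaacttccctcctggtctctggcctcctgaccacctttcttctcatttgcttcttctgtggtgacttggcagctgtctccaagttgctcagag
Icam1: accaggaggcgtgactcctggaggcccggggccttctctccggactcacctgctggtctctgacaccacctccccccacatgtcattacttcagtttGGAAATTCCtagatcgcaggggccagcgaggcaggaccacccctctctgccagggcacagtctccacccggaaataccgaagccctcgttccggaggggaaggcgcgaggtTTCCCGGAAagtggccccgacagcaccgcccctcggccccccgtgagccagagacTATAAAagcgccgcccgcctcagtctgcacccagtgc

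Motifs were searched on both strands in all 32851 promoters of the same table. The letters were GAGGAA for the core recognised by the myeloid factor PU.1, TGANTCA for AP-1, GGAAATTCC for a form of the NF-kB site, TTCNNNGAA for the STAT site and TATAAA for the TATA box. The Itgam window held GAGGAA at 3 places, from -84 to -79 on the plus strand and, on the minus strand, from -15 to -10 and from 33 to 38 relative to the gene start. GAGGAA occurred in 28.3% of all promoters. The Itgax window held TGAGTCA from -56 to -50, a form that 7.81% of promoters held in any version of TGANTCA. The Icam1 window held GGAAATTCC from -153 to -145, found in 0.317% of promoters, and TTCCCGGAA, a version of TTCNNNGAA found in 8.3% of promoters, from -42 to -34. It also held TATAAA, found in 13.6% of promoters, from 14 to 19 after the RefSeq start and upstream of the GENCODE start. None of these matches overlapped another, and a match describes the letters only.

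Summed over the table, a library had 21412968 to 53172133 reads for mRNA and 8661271 to 31508394 for pre-mRNA. Each of the 5 genes had between 304 and 258939 reads in every library. Values below are normalized reads, that is, reads divided by the library's size factor, and they are given for library A and then library B of a group. The letters only tell the libraries of a group apart and do not link a library to another group or measure. A change is the log2 difference of normalized reads + 1, given with the standard error from limma (n = 2 libraries per group), and "rose" or "fell" means a Benjamini-Hochberg adjusted p under 0.05 over all genes tested. Il10 and Rag2 still gave reads in all groups, with 144 to 6199 normalized mRNA reads for Il10 and 38.79 to 82.69 for Rag2, which does not check the genotype because the position of the reads in the genes is not known.

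Macrophages that received IL-10 throughout differed from LPS macrophages most clearly in the precursors, and the genes split by direction. Pre-mRNA of Itgam and Itgb2, the subunits of Mac-1, rose 6.19-fold and 2.64-fold, while pre-mRNA of Itgax and Icam1 fell to lower levels than with LPS alone. In mature mRNA Icam1 was the only 1 of the 5 to pass, and it fell. Of the 5 genes, 2 rose and 2 fell in pre-mRNA, against 2.44% and 4.26% of the 11131 genes tested that rose and fell. In mRNA none rose and 1 fell, against 1.19% and 1.05% of 11415 genes.

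Itgam pre-mRNA stood at 3056 and 4657 normalized reads with IL-10 throughout, against 676.8 and 569.5 with LPS alone. Both IL-10 libraries were far above both LPS libraries, and the change was 2.60 ± 0.25 (adjusted p = 0.0038). Itgam mRNA stood at 8035 and 9572 with IL-10 throughout, against 10080 and 10650 with LPS alone. The mRNA groups did not overlap, and both IL-10 libraries were slightly the lower, but the change of -0.24 ± 0.19 did not pass (adjusted p = 0.68; 95% interval -0.69 to 0.21). The pre-mRNA change exceeded the mRNA change by 2.84 ± 0.32, and this difference passed its own test (adjusted p = 0.008). Of all 11131 genes, 0.0629% differed between the measures in this comparison, and Itgam was the only 1 of the 5 genes that did.

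Itgb2 pre-mRNA stood at 7524 and 8854 with IL-10 throughout, against 2524 and 3686 with LPS alone. The groups did not overlap, and Itgb2 pre-mRNA rose by 1.42 ± 0.29 (adjusted p = 0.032). Itgb2 mRNA, which encodes the chain that all the alpha subunits need, stood at 19840 and 19380 with IL-10 throughout, against 23350 and 24190 with LPS alone. The mRNA change was -0.28 ± 0.19 (adjusted p = 0.6; 95% interval -0.73 to 0.17), so the small gap between the groups did not pass. The difference between the pre-mRNA and mRNA changes of Itgb2, 1.7 ± 0.35, did not pass over all genes (adjusted p = 0.29).

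Itgax pre-mRNA stood at 2730 and 2697 with IL-10 throughout, against 17830 and 13120 with LPS alone. It fell by 2.49 ± 0.30 (adjusted p = 0.0066), to a level below both LPS libraries by a wide margin. Itgax mRNA stood at 4215 and 2686 with IL-10 throughout, against 8923 and 17250 with LPS alone. These groups did not overlap either, but the LPS libraries lay far apart, and the mRNA change of -1.88 ± 0.53 did not pass (adjusted p = 0.15). Its 95% interval ran from -3.14 to -0.63.

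Itgal, which encodes the alpha chain of LFA-1, gave changes of about the same size in both measures without passing in either. Its pre-mRNA stood at 7903 and 9643 with IL-10 throughout, against 18670 and 17820 with LPS alone (-1.06 ± 0.29, adjusted p = 0.072). Its mRNA stood at 16850 and 27480 with IL-10 throughout, against 48990 and 36630 with LPS alone (-0.98 ± 0.30, adjusted p = 0.18). In both measures the IL-10 libraries were below the LPS libraries without overlap.

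Icam1 mRNA stood at 81600 and 66810 with IL-10 throughout, against 202800 and 226800 with LPS alone. It fell by 1.54 ± 0.24 (adjusted p = 0.026), so that the mean with IL-10 was 0.345 of the mean with LPS. Icam1 pre-mRNA stood at 9324 and 7655 with IL-10 throughout, against 31940 and 30260 with LPS alone. The precursor fell by 1.88 ± 0.27 (adjusted p = 0.011). The precursor change minus the mature change of Icam1 was -0.34 ± 0.35, about as large as its error (adjusted p = 1).

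Leaving out LPS library A, LPS library B, IL-10 throughout library A or IL-10 throughout library B ended the Icam1 mRNA call, at adjusted p = 0.11, 0.19, 0.11 and 0.19, and in pre-mRNA the Icam1 call ended without IL-10 throughout library A or B (0.057 and 0.11), the Itgax call without IL-10 throughout library B (0.053), and the Itgb2 call without LPS library A or either IL-10 throughout library (0.15, 0.1 and 0.2). The Itgam pre-mRNA call held without any of them, at adjusted p of 0.013 to 0.035, while the Itgam difference between measures ended without mRNA LPS library B (0.05) or mRNA IL-10 throughout library A or B (0.053 and 0.06). Fitting the compared groups alone ended the calls of Icam1 in mRNA and pre-mRNA (0.13 and 0.079) and of Itgb2 in pre-mRNA (0.089), quantile normalization that of Icam1 mRNA (0.05), and testing without a filter on low values that of Itgb2 pre-mRNA (0.058).

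**Figure D1:**
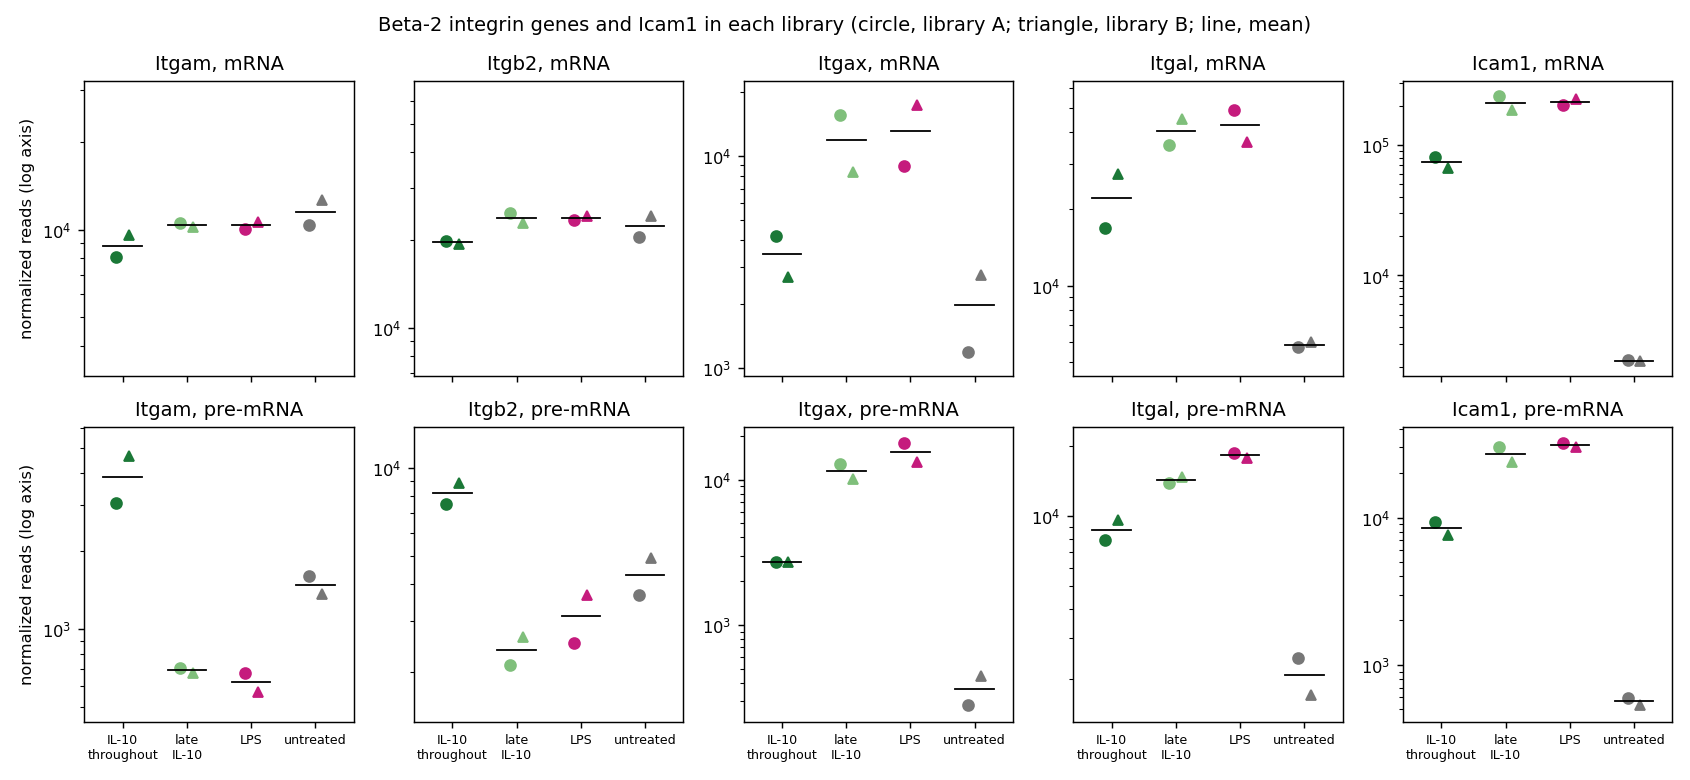
Normalized reads (log axis, own range per gene) of the 5 genes in each library, mRNA above and pre-mRNA below, with groups from left to right IL-10 throughout, late IL-10, LPS and untreated. Circles are library A, triangles library B and lines the mean of 2; Itgam pre-mRNA sits at 3056 and 4657 with IL-10 throughout and at 676.8 and 569.5 with LPS, while Itgam mRNA stays between 8035 and 12620 in all 8 libraries.

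**Figure D2:**
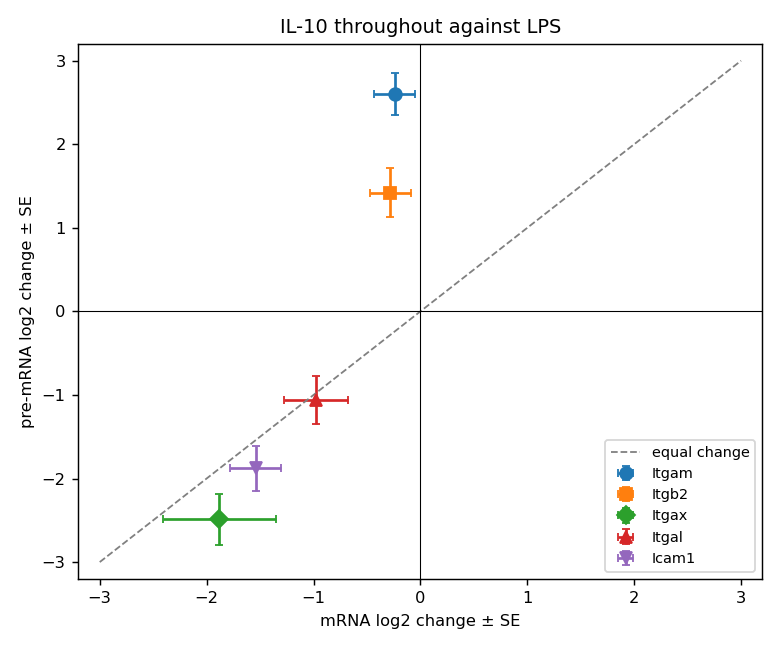
Log2 change of pre-mRNA (vertical) against that of mRNA (horizontal), IL-10 throughout against LPS, with standard errors from limma (2 libraries per group). Itgax, Itgal and Icam1 lie near the dashed line of equal change, and Itgam (2.60 in pre-mRNA, -0.24 in mRNA) and Itgb2 (1.42 and -0.28) lie above it.

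IL-10 given for the last 30 min left no detectable difference from LPS alone in any of the 5 genes. None was called in mRNA or pre-mRNA, none had an unadjusted p under 0.05, and limma-voom on the recovered reads called none either. Over all genes 0% rose and 0% fell in mRNA, with 92 higher and 15 lower at an unadjusted p under 0.05, and limma-voom also called 0. In pre-mRNA 0.979% rose and 0.0629% fell. Itgam mRNA stood at 10560 and 10240 with late IL-10 and its pre-mRNA at 707.3 and 676.6, next to the LPS values given above. The Itgam pre-mRNA change was 0.16 ± 0.25, with a 95% interval of -0.43 to 0.74. Itgb2 mRNA stood at 24670 and 22800 with late IL-10, and its pre-mRNA at 2117 and 2630, a pre-mRNA change of -0.37 ± 0.29 with an interval of -1.03 to 0.29.

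For the genes that LPS raised, the late IL-10 libraries also lay close to the LPS libraries. Itgax mRNA stood at 15450 and 8348 and its pre-mRNA at 12850 and 10160 with late IL-10. Both late libraries had less Itgax pre-mRNA than either LPS library, but the change of -0.42 ± 0.30 did not pass (adjusted p = 1; 95% interval -1.11 to 0.27). Itgal mRNA stood at 35760 and 45300 with late IL-10 and its pre-mRNA at 13890 and 14750. Itgal pre-mRNA was likewise lower in both late libraries without passing, with a change of -0.35 ± 0.29 and an interval of -1.02 to 0.32. Icam1 mRNA stood at 238900 and 186100 with late IL-10 and its pre-mRNA at 30380 and 23960. Its mRNA change was -0.02 ± 0.24 and its pre-mRNA change -0.20 ± 0.27, with an interval of -0.83 to 0.42 for the precursor.

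The schedules of IL-10 were also compared directly, and 4 precursors and 1 mRNA passed. The IL-10 throughout libraries enter this comparison and the one with LPS alike. With IL-10 throughout against late IL-10, pre-mRNA rose for Itgam (2.45 ± 0.25, adjusted p = 0.014) and Itgb2 (1.79 ± 0.29, adjusted p = 0.03), and fell for Itgax (-2.07 ± 0.30, adjusted p = 0.026) and Icam1 (-1.67 ± 0.27, adjusted p = 0.031). Among all genes 0.755% rose and 2.2% fell in pre-mRNA. In mRNA Icam1 fell (-1.51 ± 0.24, adjusted p = 0.041), against 0.517% of genes that rose and 0.569% that fell. Itgal changed by -0.71 ± 0.29 in pre-mRNA and by -0.90 ± 0.30 in mRNA, neither past the threshold (adjusted p = 0.21 and 0.24). The pre-mRNA change exceeded the mRNA change for Itgam (2.69 ± 0.32, adjusted p = 0.004) and Itgb2 (2.06 ± 0.35, adjusted p = 0.025), against 0.494% of all genes that differed. Leaving out any 1 library of these groups ended each of the 5 calls, with adjusted p from 0.052 to 0.27, and the Itgb2 difference between measures ended without any 1 of the libraries of either group and measure (0.05 to 0.15), while that of Itgam held. Fitting the compared groups alone ended all 5 calls as well (0.053 to 0.19), and testing without a filter ended those of Itgax, Itgb2 and Icam1 pre-mRNA (0.059, 0.062 and 0.056). Quantile normalization ended the Icam1 calls in mRNA (-1.01, adjusted p = 0.07) and pre-mRNA (-1.03, 0.053).

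LPS alone, set against no treatment, raised Icam1, Itgal and Itgax in both measures and lowered Itgam pre-mRNA. In mRNA 3 of the 5 genes rose and none fell, where 19.2% of all genes rose and 16.5% fell. In pre-mRNA 3 rose and 1 fell, where 22.3% rose and 21.7% fell. These shares depend on the scaling: with libraries scaled to their total reads, 1203 genes rose and 4495 fell in mRNA, against 2193 and 1887 as reported, and 1236 rose and 4680 fell in pre-mRNA, against 2484 and 2418. Icam1 mRNA stood at 202800 and 226800 with LPS, against 2235 and 2191 in untreated cells. It rose by 6.60 ± 0.24 on the log2 scale (adjusted p = 2.1e-05), which is 97.1-fold between the means. Icam1 pre-mRNA stood at 31940 and 30260 with LPS, against 593.4 and 533.3 in untreated cells, and rose 55.2-fold (5.79 ± 0.27, adjusted p = 1.9e-05). The Icam1 libraries of each group lay close together and the groups were far apart.

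Itgal, the LFA-1 alpha chain, had 48990 and 36630 normalized mRNA reads with LPS, against 5730 and 5990 in untreated cells, and rose 7.31-fold (2.85 ± 0.30, adjusted p = 0.00074). Its pre-mRNA stood at 18670 and 17820 with LPS, against 2457 and 1708 in untreated cells, and rose 8.76-fold (3.15 ± 0.29, adjusted p = 2e-04). In both measures the lower LPS library was well above the higher untreated library. Itgax, the CD11c gene, had 8923 and 17250 normalized mRNA reads with LPS, against 1195 and 2759 in untreated cells, and rose 6.62-fold (2.77 ± 0.53, adjusted p = 0.008), a call that ended without untreated library A (adjusted p = 0.051). Itgax pre-mRNA stood at 17830 and 13120 with LPS, against 280.2 and 443 in untreated cells, and rose 42.8-fold (5.44 ± 0.30, adjusted p = 3.1e-05). The Itgax precursor changed by 2.66 ± 0.65 more than its mature mRNA on the log2 scale, which did not pass over all genes (adjusted p = 0.082), where 1.24% of genes differed.

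Neither of the Mac-1 subunits Itgam and Itgb2 passed in mRNA. Itgam mRNA stood at 10080 and 10650 with LPS, against 10370 and 12620 in untreated cells, and the groups overlapped (-0.14 ± 0.19, adjusted p = 0.6; 95% interval -0.60 to 0.31). Its pre-mRNA stood at 676.8 and 569.5 with LPS, against 1604 and 1367 in untreated cells, and fell without overlap (-1.25 ± 0.25, adjusted p = 0.006). Itgb2 mRNA stood at 23350 and 24190 with LPS, against 20420 and 24110 in untreated cells, with a change of 0.10 ± 0.19 (adjusted p = 0.72; 95% interval -0.35 to 0.55). Itgb2 pre-mRNA stood at 2524 and 3686 with LPS, against 3682 and 4905 in untreated cells, a narrow overlap (-0.48 ± 0.29, adjusted p = 0.21). In some of the alternative settings Itgb2 pre-mRNA passed as lower, with changes down to -1.4. These calls depend on the scaling: with libraries scaled to their total reads, Itgam and Itgb2 mRNA were lower with LPS (-0.89 and -0.65, adjusted p = 0.015 and 0.026), in a setting that moved the median of all genes by -0.748 in mRNA.

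**Figure D3:**
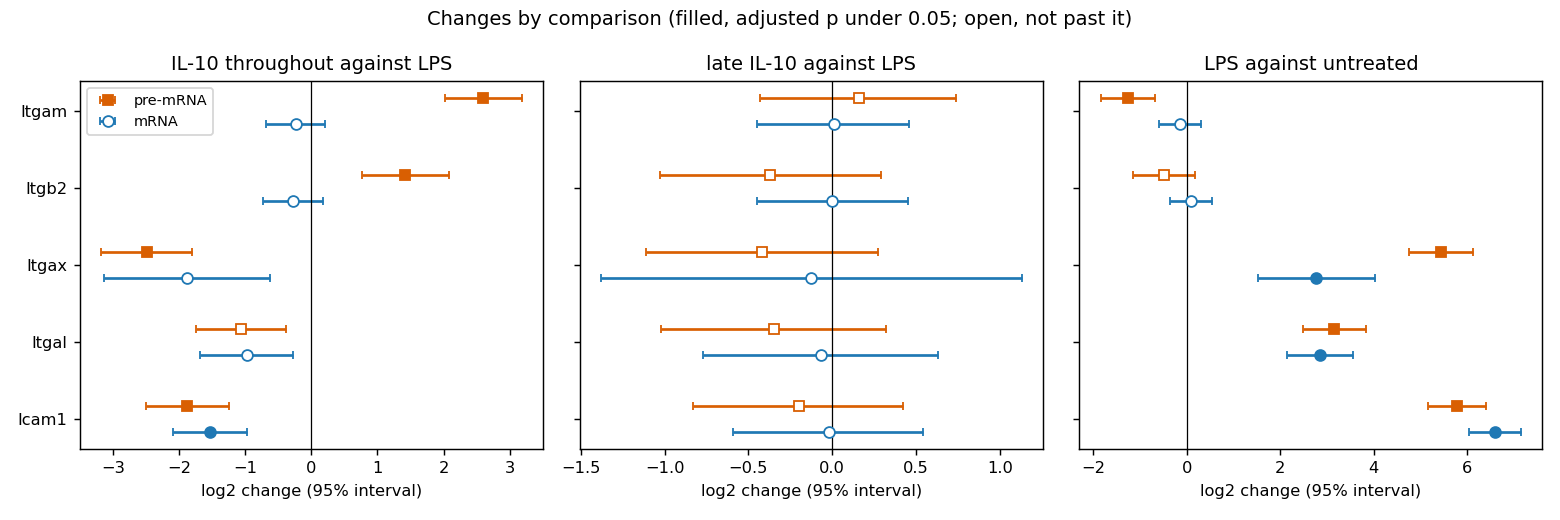
Log2 change of the 5 genes in 3 comparisons, pre-mRNA as squares and mRNA as circles, with 95% intervals and a separate horizontal range in each panel; filled symbols passed an adjusted p under 0.05. Icam1 mRNA is at 6.60 for LPS against untreated and at -1.54 for IL-10 throughout against LPS, and every symbol of late IL-10 against LPS is open.

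Set against untreated cells, macrophages with IL-10 throughout had more Icam1 and Itgal mRNA, and more pre-mRNA of all 5 genes. In mRNA 2 of the 5 genes rose, against 25.8% of all genes called in either direction. Icam1 mRNA was 33.5-fold higher (5.06 ± 0.24, adjusted p = 6e-05) and Itgal mRNA 3.78-fold higher (1.88 ± 0.30, adjusted p = 0.005). Itgax mRNA overlapped the untreated libraries (0.89 ± 0.53, adjusted p = 0.25). Itgam and Itgb2 mRNA lay below both untreated libraries without passing (-0.38 ± 0.19 and -0.18 ± 0.19, adjusted p = 0.18 and 0.53). Scaled to total reads or with quantile normalization, mRNA of Itgam and Itgb2 passed as lower, with changes down to -1.06 and -1.16. In pre-mRNA all 5 rose, against 28.8% of all genes called. Itgam pre-mRNA was 2.6-fold above untreated cells (1.35 ± 0.25, adjusted p = 0.0067), and Itgb2 pre-mRNA 1.91-fold (0.94 ± 0.29, adjusted p = 0.043). Itgax pre-mRNA was 7.5-fold above untreated cells (2.94 ± 0.30), Itgal 4.21-fold (2.09 ± 0.29) and Icam1 15.1-fold (3.91 ± 0.27). The precursor change exceeded the mRNA change for Itgam (1.73 ± 0.32, adjusted p = 0.037), against 0.656% of all genes that differed. Scaled to total reads, the Itgam and Itgb2 precursor calls and this difference were lost (adjusted p = 0.063, 0.4 and 0.099), and the Itgb2 precursor call also ended without any 1 of the 4 libraries (0.072 to 0.2), with quantile normalization (0.32) and with limma-voom (0.063). The difference of Itgam ended without any 1 of the 4 mRNA libraries, either untreated pre-mRNA library or IL-10 throughout pre-mRNA library B (0.06 to 0.16).

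Late IL-10 was set against the same untreated libraries as LPS. In mRNA Icam1 (6.57 ± 0.24), Itgal (2.78 ± 0.30) and Itgax (2.64 ± 0.53) rose, against 36.1% of all genes called. In pre-mRNA Icam1 (5.58 ± 0.27), Itgax (5.01 ± 0.30) and Itgal (2.80 ± 0.29) rose, and Itgam (-1.10 ± 0.25, adjusted p = 0.011) and Itgb2 (-0.85 ± 0.29, adjusted p = 0.045) fell, against 43.5% of all genes called. The Itgax mRNA call ended without untreated library A or late IL-10 library A (adjusted p = 0.058 and 0.054), the Itgam pre-mRNA call without the same libraries of that measure (0.064 and 0.051), and the Itgb2 pre-mRNA call without any 1 library (0.065 to 0.23).

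Levels can be compared between genes only per length, here as normalized mRNA reads per kb of annotated exon. In untreated cells Itgb2 was first with a mean of 7496, followed by Itgam at 2334, Itgal at 918.3, Icam1 at 872.8 and Itgax at 456.3. With LPS the order was Icam1 at 84740, Itgb2 at 8003, Itgal at 6709, Itgax at 3020 and Itgam at 2103, where the Itgax libraries (2059 and 3981) overlapped those of Itgam (2045 and 2162). With IL-10 throughout Icam1 stood at 29270, Itgb2 at 6602, Itgal at 3474, Itgam at 1787 and Itgax at 796.4. Late IL-10 gave the same order as LPS. The Itgal and Icam1 libraries of untreated cells did not overlap but lay within a narrow range, 897.9 and 938.7 against 881.5 and 864.2.

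The make-up of the alpha-subunit mRNA differed widely between untreated cells and the groups given LPS. Summed over Itgam, Itgax, Itgal and Itgad per exon kb, Itgam made up 29.5% with IL-10 throughout, 18.6% when IL-10 came late, 17.6% with LPS and 62.7% in untreated cells (means of 2 libraries). Itgal made up 56.2%, 56.2%, 56.1% and 24.9% in the same groups. Itgax made up 13.7%, 24.2%, 25.2% and 11.8%. The Itgam share was similar between the libraries of a group, at 30.9% and 28.1% with IL-10 throughout against 17.2% and 18% with LPS, whereas the Itgax share was not, at 18.4% and 8.98% against 17.3% and 33.1%. Itgad stayed between 0.398% and 1.25%. These shares describe mRNA and were not tested.

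**Figure D4:**
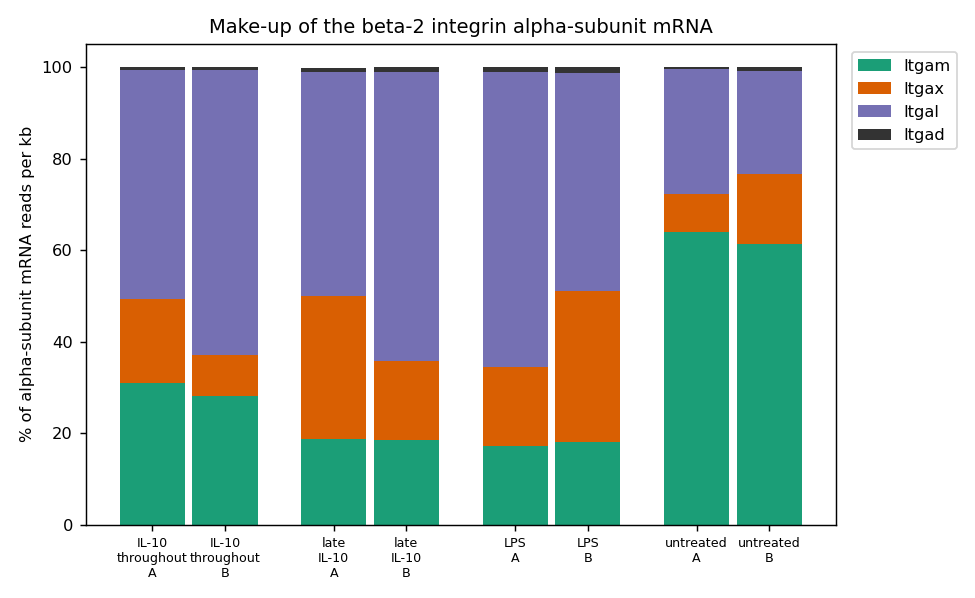
Share of each alpha-subunit gene in the summed mRNA reads per exon kb (vertical, percent), with 1 bar per library, labelled A and B, and groups from left to right IL-10 throughout, late IL-10, LPS and untreated. Itgam takes 64% and 61.4% in the untreated libraries and 17.2% to 30.9% in the 6 libraries given LPS.

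The libraries of a group were unequally close for different genes. The log2 gap between the Itgax mRNA libraries was 0.65 with IL-10 throughout, 0.89 when IL-10 came late, -0.95 with LPS and -1.21 in untreated cells (A minus B), and was larger than that of 73.2% to 94% of all genes in the 4 groups. In each of the 3 groups given LPS, the library with more Itgax mRNA had less Itgal mRNA. In pre-mRNA the Itgax gap was 0.02 with IL-10 throughout and 0.34, 0.44 and -0.66 in the late IL-10, LPS and untreated groups. The wide Itgax mRNA error of 0.53, against 0.19 for Itgam and Itgb2, comes with these gaps.

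Likeness of pattern was measured as the root-mean-square difference of centred log2 values over the 16 library columns of both measures. Each gene was compared with 10861 others, leaving out loci with Gm-number or Rik symbols. Itgb2 was the gene nearest to Itgam, at 0.375, followed by Scarb1 at 0.39 and Ctsh at 0.444. The reverse did not hold, since P4hb at 0.168, Atp6ap1 at 0.191 and Gdpd1 at 0.217 were nearer to Itgb2. Itgam stood much farther from its neighbour on the chromosome, Itgax, at 2.23. The genes nearest to Itgax were Bst2 at 0.291, Ube2l6 at 0.374 and Agrn at 0.415. Those nearest to Itgal were Orm3 at 0.283, Stk38l at 0.286 and Ccdc86 at 0.289. Those nearest to Icam1 were Nfkbiz at 0.321, Usp43 at 0.395 and Traf1 at 0.448. The columns share libraries between genes, so these values describe likeness in these samples only.

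Among the other ligands of beta-2 integrins and CD11d, 8 of 12 listed genes were measured. With IL-10 throughout against LPS, none rose and 1 fell in mRNA, with a median change of -1.29 against -0.02 over all genes, of which 1.19% rose and 1.05% fell. In pre-mRNA none rose and 1 fell, with a median of -1.62 against 0, and 2.44% of all genes rose and 4.26% fell. The one in mRNA was Icam5, a relative of Icam1, at 27.7 and 46.75 with IL-10 throughout against 277.2 and 242.3 with LPS (-2.81 ± 0.48, adjusted p = 0.038, or 0.066 when scaled to total reads). The one in pre-mRNA was C3, the complement component whose fragment iC3b is bound by Mac-1, at 289.8 and 351.6 with IL-10 throughout against 1260 and 1008 with LPS (-1.82 ± 0.27, adjusted p = 0.013, or 0.06 when scaled to total reads). Itgad mRNA stood at 134 and 153 with IL-10 throughout, against 490.5 and 644.3 with LPS. With LPS against untreated cells, 6 of the 8 rose and 1 fell in mRNA (median 3.13 against 0.01), where 19.2% of all genes rose and 16.5% fell. In pre-mRNA 6 rose and none fell (median 3.37 against 0), where 22.3% rose and 21.7% fell. Only genes with at least 11 reads in each LPS mRNA library were listed, so a scarce ligand gene that fell could be absent. Icam4 mRNA stood at 325.6 and 411.8 with LPS against 19.84 and 17.38 without (4.23 ± 0.38), and C3 pre-mRNA at 1260 and 1008 against 10.12 and 8.743 (6.76 ± 0.27). Gp1ba, the platelet glycoprotein bound by Mac-1, fell, at 35.03 and 32.22 with LPS against 201.1 and 137.8 without (-2.28 ± 0.34, adjusted p = 0.0032).

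Of 26 listed genes that activate integrins or link them to the cytoskeleton, 25 were measured. With IL-10 throughout against LPS, 1 of 25 measured genes rose in mRNA and 3 rose in pre-mRNA, and none fell in either. Over all genes 1.19% rose and 1.05% fell in mRNA, and 2.44% rose and 4.26% fell in pre-mRNA. The medians were 0.04 in mRNA against -0.02 over all genes, and 0.03 in pre-mRNA against 0. Vav1, a guanine nucleotide exchange factor of blood cells, rose in both measures. Its pre-mRNA stood at 13170 and 13470 with IL-10 throughout against 2733 and 2953 with LPS (2.23 ± 0.24, adjusted p = 0.0048), and its mRNA at 9412 and 13000 against 3252 and 1671 (2.25 ± 0.38, adjusted p = 0.038). The pre-mRNA of Fermt3, which encodes kindlin-3, the activator that binds the beta tail, stood at 4310 and 5160 with IL-10 throughout against 1389 and 2104 with LPS (1.46 ± 0.31, adjusted p = 0.035). Fgr, a Src family kinase of myeloid cells, also rose in pre-mRNA (2.51 ± 0.42, adjusted p = 0.018). With late IL-10 against LPS, 2 of 25 rose in pre-mRNA, where 0.979% of all genes did, namely Vav1 (1.83 ± 0.24, adjusted p = 0.014) and Rhoh (1.98 ± 0.28, adjusted p = 0.02), and no gene passed in mRNA, where 1 had an unadjusted p under 0.05. With LPS against untreated cells 9 of 25 rose and 4 fell in mRNA (19.2% and 16.5% of all genes), and 10 rose and 3 fell in pre-mRNA (22.3% and 21.7%). Scaled to total reads, 5 rose and 8 fell in mRNA and 7 rose and 11 fell in pre-mRNA. With quantile normalization, 5 rose and 7 fell in mRNA and 6 rose and 7 fell in pre-mRNA. The kinase Src was among those that rose, at 10840 and 17180 normalized mRNA reads with LPS against 202.4 and 409.6 without (5.56 ± 0.41, adjusted p = 0.00021).

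In the lists of other integrin subunits (13 of 21 measured) and other leukocyte adhesion molecules (7 of 8 measured), no gene passed with IL-10 throughout or with late IL-10 against LPS in either measure. At an unadjusted p under 0.05 IL-10 throughout gave 4 integrin subunits and 1 adhesion molecule in each measure. Late IL-10 gave none of either kind in mRNA and 1 of each in pre-mRNA. With LPS against untreated cells 6 of 13 other integrin subunits rose and 2 fell in mRNA (19.2% and 16.5% of all genes), and 5 rose and 5 fell in pre-mRNA (22.3% and 21.7%). Scaled to total reads, 4 rose and 3 fell in mRNA, where Itga1 and Itgb1 no longer passed (adjusted p = 0.17 and 0.26). Itga5, the fibronectin receptor alpha chain, had 52640 and 47370 normalized mRNA reads with LPS against 6618 and 6434 without (2.94 ± 0.19, adjusted p = 0.00014). Itga6, a laminin receptor chain, fell in mRNA, at 2441 and 1885 with LPS against 5240 and 4457 without (-1.17 ± 0.23, adjusted p = 0.0095). Of the 7 adhesion molecules 3 rose and 1 fell in mRNA, and 5 rose and 1 fell in pre-mRNA, beside the same shares of all genes. Scaled to total reads, 1 rose in mRNA, without Cd47 and Ninj1 (adjusted p = 0.051 and 0.13). With quantile normalization 1 rose in mRNA, without Cd44 and Ninj1 (0.16 and 0.59), and 2 rose in pre-mRNA. Selplg, the P-selectin ligand, was the one that fell, at 4420 and 4331 normalized mRNA reads with LPS against 6924 and 10350 without (-0.95 ± 0.23, adjusted p = 0.019).

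Of 10 factors listed for the promoters of these genes, none passed in mRNA with IL-10 throughout against LPS (2 had an unadjusted p under 0.05). With LPS against untreated cells 6 of 10 rose in mRNA and 5 of 8 in pre-mRNA, where 19.2% and 22.3% of all genes rose, and none fell. Scaled to total reads, 4 rose and 3 fell in mRNA and 3 rose and 2 fell in pre-mRNA. With quantile normalization 3 rose and 1 fell in mRNA, where Spi1, Gabpa and Cebpb no longer passed (adjusted p = 0.12, 0.052 and 0.2), and 3 rose and 1 fell in pre-mRNA. Nfkb1, which encodes an NF-kB subunit, had 67160 and 80440 normalized mRNA reads with LPS against 4591 and 5130 without (3.92 ± 0.24, adjusted p = 0.00011). Rela, which encodes another NF-kB subunit, had 15510 and 14100 normalized mRNA reads with LPS against 3972 and 5332 without (1.68 ± 0.21, adjusted p = 0.0016).

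Because several of the genes are also used by other leukocytes, markers of other cells were read in the same libraries. All 8 macrophage markers were in the table, with summed mRNA of 645100 and 614700 normalized reads with IL-10 throughout, 802600 and 786600 when IL-10 came late, 827300 and 780300 with LPS and 518300 and 502600 in untreated cells. Of 12 neutrophil markers 9 were measured, and their summed pre-mRNA was 552.4 and 705.5 with IL-10 throughout, 572.2 and 535.3 when IL-10 came late, 252.6 and 211.9 with LPS and 161.9 and 106.4 in untreated cells. Lcn2 gave 277.3 and 421.8 of that sum with IL-10 throughout, 420.3 and 381.5 when IL-10 came late, 41.13 and 43.19 with LPS and 5.86 and 0 in untreated cells. Mmp8, which encodes a neutrophil collagenase, was the marker whose pre-mRNA passed with IL-10 throughout against LPS (3.45 ± 0.47, adjusted p = 0.0094). Its pre-mRNA stood at 104.7 and 166.1 with IL-10 throughout, 13.25 and 14.59 when IL-10 came late, 15.28 and 8.098 with LPS and 129.4 and 90.34 in untreated cells. Mmp8 pre-mRNA was thus high and low in the same groups as Itgam pre-mRNA, while Mmp8 mRNA changed by -0.01 ± 0.29 with IL-10 throughout against LPS (adjusted p = 1). Among the other markers, S100a8 pre-mRNA was 20.65 and 40.99 with IL-10 throughout against 15.28 and 17.55 with LPS, Camp 16.96 and 32.36 against 25.85 and 56.68, and Mpo 0 and 1.079 against 2.35 and 1.35. Summed neutrophil mRNA was 6355 and 5171 with IL-10 throughout, 5766 and 4046 when IL-10 came late, 3675 and 5407 with LPS and 2094 and 2662 in untreated cells. In the comparison of LPS with untreated cells, where Icam1, Itgal and Itgax rose, 7 of 9 neutrophil markers rose in mRNA and none fell (median 3.18). Of all genes 19.2% rose and 16.5% fell in mRNA. In pre-mRNA 5 of 8 tested markers rose and 1 fell (median 2.66), where 22.3% of all genes rose and 21.7% fell. Only genes with at least 11 reads in each LPS mRNA library were listed. A scarce marker that fell with LPS could therefore be absent, and these counts do not test for a rise of the markers. Scaled to total reads, Mpo mRNA and the pre-mRNA of S100a8 and Ltf no longer passed (adjusted p = 0.11, 0.11 and 0.064). Mpo mRNA also did not pass with quantile normalization or limma-voom (0.17 and 0.072), nor Mmp9 mRNA with limma-voom (0.051).

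Of 8 dendritic cell markers 4 were measured. Their summed mRNA was 445.9 and 370.9 with IL-10 throughout, 553.6 and 596 when IL-10 came late, 604.8 and 704.6 with LPS and 168.7 and 151.4 in untreated cells. The groups ranked as they did for mean Itgax mRNA, but Xcr1 gave most of each sum. With IL-10 throughout against LPS, mean mRNA was lower for Xcr1 (225.3 against 422) and Zbtb46 (44.91 against 90.86). Libraries of these groups overlapped for Ccr7 (means 48.51 against 36.49) and Batf3 (89.69 against 105.3). Summed pre-mRNA was 148.2 and 85.22 with IL-10 throughout, 493.6 and 245.7 when IL-10 came late, 361.9 and 330.7 with LPS and 68.18 and 88.89 in untreated cells. None of the 4 passed with IL-10 throughout against LPS, and 2 had an unadjusted p under 0.05 in each measure. Against untreated cells, LPS gave 3 of 4 that rose in mRNA (median 2.39) and 2 in pre-mRNA (median 2.23). Of all genes 19.2% rose in mRNA and 22.3% in pre-mRNA. Dendritic cell markers that were scarce with LPS could be absent in the same way, so these counts do not test for a rise either. Scaled to total reads, Xcr1 mRNA and Batf3 pre-mRNA no longer passed (adjusted p = 0.054 and 0.35). With quantile normalization Ccr7 mRNA did not pass (0.072). Of 10 T and NK cell markers 3 were measured, none of them a Cd3 gene, and none of 5 B cell markers was. The summed T and NK cell mRNA was 796.2 and 409.1 with IL-10 throughout, 956.7 and 542.1 when IL-10 came late, 449.2 and 762 with LPS and 3341 and 5608 in untreated cells. Cd28 mRNA fell with LPS against untreated cells (-3.11 ± 0.39, adjusted p = 0.0016). Lck mRNA rose (3.16 ± 0.73, adjusted p = 0.016), but did not pass with quantile normalization or voom (0.078 and 0.095). The part of other cell types in the changes of Itgam, Itgb2, Itgax, Itgal and Icam1 was not tested. In bulk RNA, fewer cells of a type and less RNA per cell cannot be told apart.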

How the data were processed

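Total RNA of bone marrow-derived macrophages was ribosome-depleted and sequenced with a directional kit, per the labels' protocols. The authors deposited 1 table with a normalized read signal per gene for mRNA and for pre-mRNA in each of 4 groups. Trim Galore, DESeq and build mm10 are named in the submitters' processing notes; how reads were aligned, counted and called pre-mRNA is not given in the sources used here.

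Each deposited signal value is the mean of 2 libraries' whole read counts, each divided by a size factor. Both counts were recovered for 100% of values (largest relative error 5.1e-15, no second solution), which goes beyond the group means as deposited, and all p-values rest on it. The table lists genes with at least 11 reads in each LPS mRNA library, so scarce genes that fell with LPS could be missing from any list. P-values measure the spread between libraries, part of which may be technical.

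Values were fitted as log2(normalized reads + 1), which understates changes of low genes, by limma-trend (limma 3.58.1, R 4.3.3). Each fit held all 8 libraries of a measure, with group as the only term and genes of mean at least 1 (11415 mRNA, 11131 pre-mRNA). Both measures were joined in 1 fit to test pre-mRNA against mRNA changes, treating them as independent although they share RNA. Calls needed an adjusted p (Benjamini-Hochberg) under 0.05. The fits were tested on simulated data. From each pathway list up to 3 rising and 3 falling genes per comparison and measure, by smallest adjusted p, could be named (1 gene of the promoter factor list is not reported here); other named genes were picked after their values were seen. The 5 genes and the lists were chosen with earlier results of these data known. Alternatives were other pseudocounts, filters and scalings, limma-voom, the compared groups alone and leaving out each library.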

Additional observations from a re-analysis of the deposited data

Results flagged for a closer look

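The effect of IL-10 on 5 values differed between the schedules, by limma's direct test of IL-10 throughout against late IL-10 over all genes. Fitting the compared groups alone ended all 5 calls, as given above. Icam1 mRNA differed by -1.51 on the log2 scale (adjusted p = 0.041), with both IL-10 throughout libraries below both late IL-10 libraries. In pre-mRNA, Itgam differed by 2.45 (adjusted p = 0.014) and Itgb2 by 1.79 (adjusted p = 0.03), with IL-10 throughout higher in both libraries. Itgax pre-mRNA differed by -2.07 (adjusted p = 0.026) and Icam1 pre-mRNA by -1.67 (adjusted p = 0.031), with IL-10 throughout lower in both libraries. The IL-10 dose of the late group is not restated in the labels, so schedule and dose cannot be told apart.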

How the results depend on the processing

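Each alternative changed 1 choice. A change of direction was counted only where a value passed before or after it. A change of sign without a call was scored as kept. Other pseudocounts, filters, scalings, limma-voom or the compared groups alone gave 660 values of single genes. Of these, 620 kept their direction in this sense and their side of the threshold, 24 lost and 12 gained a call, and 4 reversed. Of 480 values with 1 library left out, 419 kept both and 61 lost a call. A lone remaining library was assumed to vary like the other groups.

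Itgb2 mRNA reversed to -0.65 for LPS and -0.66 for late IL-10 against untreated when scaled to total reads, and to -1.16 and -1.20 with quantile normalization. Scaling to total reads called 5 genes for LPS against untreated mRNA (3 as reported), 4 for IL-10 throughout against untreated mRNA (2), 5 for late IL-10 against untreated mRNA (3) and 3 for IL-10 throughout against untreated pre-mRNA (5). It moved the count of genes whose pre-mRNA and mRNA changes differed to 1 for IL-10 throughout against late IL-10 (2) and 0 against untreated (1). That scaling shifted the median of all genes by -0.748 and -0.916 for LPS against untreated and by 0.264 and 0.461 for IL-10 throughout against LPS, in mRNA and pre-mRNA. Quantile normalization called 5, 4 and 5 genes in the same mRNA comparisons with untreated cells, and 0 for IL-10 throughout against LPS and against late IL-10 in mRNA (1 and 1). It gave 1 differing gene for LPS against untreated (0), 1 for IL-10 throughout against late IL-10 (2) and 1 for late IL-10 against untreated (0). The compared groups alone called 0 for IL-10 throughout against LPS and against late IL-10 in mRNA, 2 against LPS in pre-mRNA (4) and 0 against late IL-10 in pre-mRNA (4). No filter on low values called 1 for IL-10 throughout against late IL-10 in pre-mRNA (4). The causes were not tested.

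Leaving out 1 library gave 0 to 0 calls for IL-10 throughout against LPS and against late IL-10 in mRNA, 1 to 4 and 0 to 0 for the same comparisons in pre-mRNA, and 3 to 4 for late IL-10 against untreated in pre-mRNA. It gave 0 to 1 differing genes for IL-10 throughout against LPS, 1 to 1 against late IL-10 and 0 to 1 against untreated.

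No paired analysis was possible because the deposited columns carry no replicate number. With 304 or more reads per library, counting error was small for the 5 genes, and 2 libraries per group limit the precision.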
